A study of Mus musculus with 6 samples.

Results

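The dystrophin glycoprotein complex was described here by 8 genes, Dmd, Utrn, Dag1, Sgca, Sgcb, Sgcd, Sntb1 and Dtna. They were taken by name, but with earlier results of these data known. Each of the 8 was represented by 1 probe set among the 21212 probe sets of the array, and the level of each lay above the array background in both groups. Gastrocnemius and plantaris muscles came from male CDF1 mice, 8 weeks old when the experiment began. C26 mice carried colon 26 adenocarcinoma cells given in PBS/matrigel under the skin of both flanks, and control mice received PBS/matrigel alone. Muscles were taken on day 25 after inoculation from 3 control and 4 C26 mice, RNA of 2 to 3 muscles was combined per pool, and 3 control pools (numbered 1, 2 and 3) and 3 C26 pools (numbered 1, 3 and 4) were each hybridized to 1 array. The sources used here do not say which muscle entered which pool, so that pools of a group may share a mouse and p-values measure only the spread between pools. The question asked of these arrays was which mRNAs of the complex differ between control muscle and muscle wasted by the C26 tumor.

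The complex ties the cytoskeleton of the muscle fiber to the basement membrane and protects the fiber membrane, the sarcolemma, while the fiber contracts. Dystrophin (Dmd) binds actin on the inner side and dystroglycan (Dag1) at the membrane, and the sugar chains of dystroglycan bind laminin on the outer side. Sarcoglycans (Sgca, Sgcb and Sgcd) and sarcospan (Sspn) form a subcomplex in the membrane, syntrophins (Sntb1 among them) and dystrobrevin (Dtna) form the signaling side in the cytoplasm, and utrophin (Utrn) is the paralog of dystrophin that is concentrated at the neuromuscular junction of adult fibers. Loss of dystrophin or of a sarcoglycan causes muscular dystrophy.

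Values are log2 RMA expression values, so that a difference of 1 is a change of 2-fold. They compare a gene between pools and not one gene with another. Rose and fell are used for genes with a limma adjusted p up to 0.05, taken over all probe sets, together with a change of 1.5-fold or more (0.585 on the log2 scale). Array medians lay between 4.93 and 5.02. Pearson correlations across probe sets were 0.994 to 0.996 between arrays of a group and 0.976 to 0.981 between groups, and no array was left out. With these thresholds 1261 probe sets rose and 1049 fell, and the median log2 change of all probe sets was −0.05. Rises made up 54.6% of the calls, and 64.6% of them when each array was centred on its median (1534 rises and 839 falls). The 12 muscle fiber markers, which include skeletal actin and fast myosin heavy chains, all lay above the background, 0 of the 12 rose or fell, and 9 of the 12 were lower in every C26 pool than in every control pool. Of all probe sets 24.6% were lower in this way.

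The complex did not move as 1 unit in C26 muscle. Of the 8 members 2 fell, the sarcoglycan gene Sgcd and the syntrophin gene Sntb1, and 0 rose, whereas 4.95% of all probe sets fell and 5.94% rose (10.9% together). Dmd and Dag1 were higher in each C26 pool than in each control pool, by less than 1.5-fold. Without the fold minimum 2 members passed the test on the higher side and 3 on the lower side, beside 14.3% and 15.8% of all probe sets (30.1% together). The groups did not overlap for 2 higher and 3 lower members, beside 19.3% and 24.6% of all probe sets (43.9% together). The median log2 change of the 8 members was −0.02, with a range from −0.73 to 0.48. These arrays measured whole muscle, in which fewer cells of a type and less RNA per cell cannot be told apart.

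**Figure D1:**
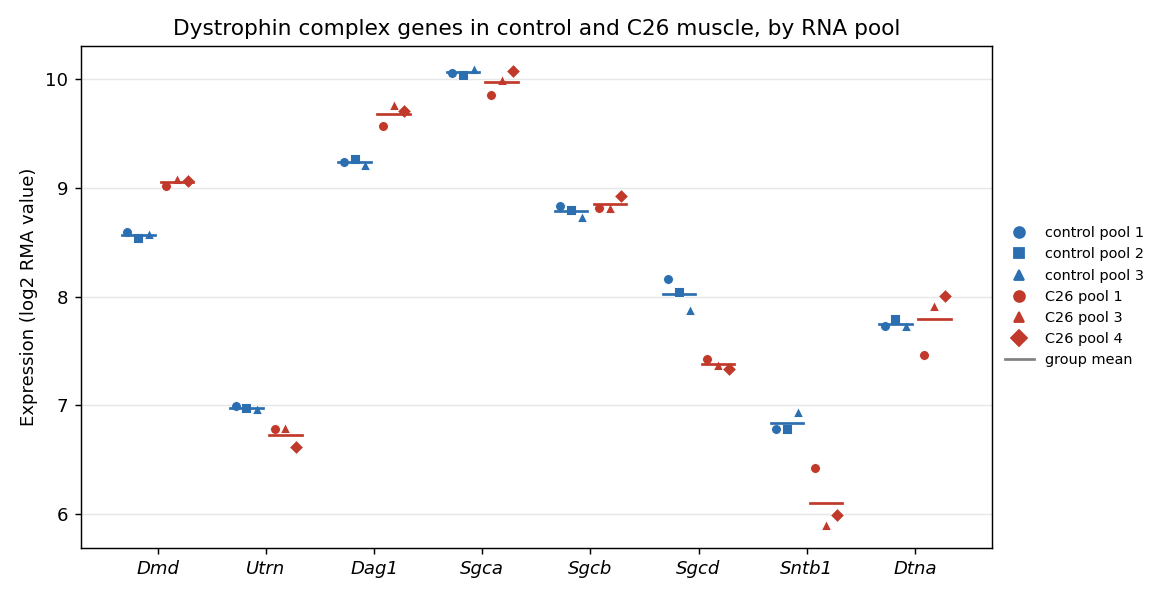
The vertical axis gives the log2 RMA value of each of the 8 complex genes, where blue markers are the 3 control pools, red markers are the 3 C26 pools, lines are group means and shapes stand for pool numbers. The C26 pools lie above the control pools for Dmd and Dag1 and below them for Utrn, Sgcd and Sntb1, and the C26 pools of Dtna lie on both sides of the control pools, with pool 1 at 7.47 and pool 4 at 8.01.

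Dmd, the dystrophin gene, measured 8.60, 8.54 and 8.57 in control pools 1, 2 and 3 and 9.02, 9.08 and 9.06 in C26 pools 1, 3 and 4. The pools of each group lay close together and the groups were well apart. The log2 change was 0.48 (SE 0.07, 95% confidence interval 0.32 to 0.65, adjusted p = 0.00111), which is 1.40-fold and therefore under the 1.5-fold minimum. Dag1, which encodes both chains of dystroglycan, measured 9.24, 9.26 and 9.21 in control pools 1, 2 and 3 and 9.57, 9.76 and 9.70 in C26 pools 1, 3 and 4. Its lowest C26 pool was pool 1, which still lay above every control pool. The log2 change of Dag1 was 0.44 (SE 0.08, interval 0.26 to 0.62, adjusted p = 0.00323), a 1.36-fold difference. By a test with unequal variances its adjusted p was 0.0742.

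Utrn, the utrophin gene, measured 6.99, 6.98 and 6.97 in control pools 1, 2 and 3 and 6.79, 6.79 and 6.62 in C26 pools 1, 3 and 4. Every C26 pool was lower than every control pool, and pool 4 was the lowest. The log2 change was −0.25 (SE 0.08, interval −0.43 to −0.07, adjusted p = 0.0440), short of 1.5-fold. This p did not hold without any one pool (0.0515 to 0.124), after median centring of each array (0.133) or by the methods' t-test (0.0538). Since dystrophin and utrophin are paralogs that share some binding partners, the difference between their probe sets was compared within each array. The log2 value of Dmd minus that of Utrn was 1.59 ± 0.03 in control and 2.32 ± 0.11 in C26 muscle (mean ± SD, 3 pools each), and it shifted by 0.73 with no overlap between the groups. The exact permutation test gave p = 0.1 (two-sided, adjusted p = 0.3 over 3 paralog pairs), and 0.1 is the smallest p that 3 against 3 pools allow. The pairs Sgca and Sgce, and Dtna and Dtnb, were compared in the same way and shifted by −0.01 (exact p = 1) and −0.03 (exact p = 0.9).

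The 3 sarcoglycan genes among the members did not change alike. Sgcd, the δ-sarcoglycan gene, measured 8.16, 8.04 and 7.88 in control pools 1, 2 and 3 and 7.43, 7.37 and 7.33 in C26 pools 1, 3 and 4. The control pools were spread more widely than the C26 pools, and the groups did not overlap. Sgcd fell by 0.65 on the log2 scale (SE 0.09, interval −0.86 to −0.44, adjusted p = 0.000911), so that the control level was 1.57-fold the C26 level. Its change lay close to the minimum, at −0.58 (adjusted p = 0.00361) without control pool 1, the highest control, and at −0.58 (adjusted p = 0.00158) after median centring, and in both cases it no longer reached 1.5-fold. By a test with unequal variances its adjusted p was 0.0636.

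Sgca, the α-sarcoglycan gene, measured 10.05, 10.04 and 10.09 in control pools 1, 2 and 3 and 9.85, 9.99 and 10.08 in C26 pools 1, 3 and 4. The groups overlapped, since C26 pool 4 lay within the control range and only pool 1 stood clearly under it. Its log2 change was −0.09 (interval −0.28 to 0.10, adjusted p = 0.469). Sgcb, the β-sarcoglycan gene, measured 8.83, 8.80 and 8.73 in control pools 1, 2 and 3 and 8.81, 8.82 and 8.92 in C26 pools 1, 3 and 4. These groups overlapped as well, with a log2 change of 0.06 (interval −0.11 to 0.23, adjusted p = 0.590). For both genes the interval excluded a change of 1.5-fold in either direction.

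Sntb1, the β1-syntrophin gene, had the largest change of the 8 members. It measured 6.79, 6.78 and 6.94 in control pools 1, 2 and 3 and 6.43, 5.90 and 5.99 in C26 pools 1, 3 and 4. C26 pool 1 lay between the control pools and the other C26 pools, without reaching the controls. Sntb1 fell by 0.73 on the log2 scale (SE 0.13, interval −1.04 to −0.42, adjusted p = 0.00373), so that the control level was 1.66-fold the C26 level. The methods' t-test gave it an adjusted p of 0.0548, and a test with unequal variances gave 0.132. Dtna, the α-dystrobrevin gene, measured 7.73, 7.79 and 7.73 in control pools 1, 2 and 3 and 7.47, 7.92 and 8.01 in C26 pools 1, 3 and 4. C26 pool 1 lay under every control pool and C26 pools 3 and 4 over every control pool. The log2 change of Dtna was 0.05 (SE 0.13, interval −0.26 to 0.35, adjusted p = 0.833), and it was 0.21 (adjusted p = 0.0895) without C26 pool 1.

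**Figure D2:**
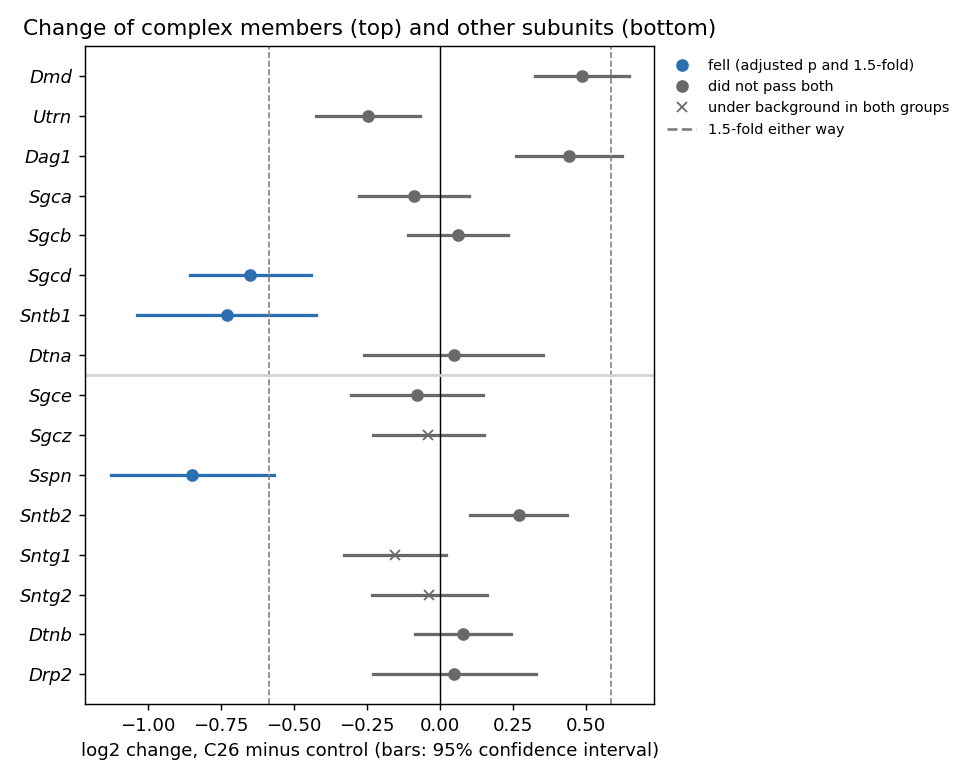
The log2 change of each gene, C26 minus control (horizontal axis), with its 95% confidence interval from limma, for the 8 members (top) and for 8 further subunits of the complex (bottom), with the 1.5-fold limits as dashed lines. Sgcd, Sntb1 and Sspn (blue) fell at −0.65, −0.73 and −0.85, and 3 subunits marked with crosses lay under the background in both groups.

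A list of 10 further subunits and paralogs was examined beside the members, of which Sgce, Sgcz, Sspn, Sntb2, Sntg1, Sntg2, Dtnb and Drp2 had a named probe set. Of these 8 genes 1 fell and 0 rose, beside 4.95% and 5.94% of all probe sets. Under the background in both groups lay 3 of them (Sgcz, Sntg1 and Sntg2), so that these could hardly show a change. Sspn, the sarcospan gene, measured 7.97, 8.12 and 8.14 in control pools 1, 2 and 3 and 7.49, 7.17 and 7.03 in C26 pools 1, 3 and 4. All C26 pools were lower than all control pools, and pool 1 was the nearest to them. Sspn fell by 0.85 on the log2 scale (SE 0.12, interval −1.12 to −0.57, adjusted p = 0.00106), a decrease that did not pass by a test with unequal variances (adjusted p = 0.0826). Sntb2, the β2-syntrophin gene, had a log2 change of 0.27 (SE 0.07, adjusted p = 0.0231), under the 1.5-fold minimum. This p did not hold without control pool 1 (0.0743), control pool 2 (0.0591), C26 pool 1 (0.0550) or C26 pool 3 (0.0766). The log2 changes of Sgce (ε-sarcoglycan, −0.08), Dtnb (β-dystrobrevin, 0.08) and Drp2 (a relative of dystrophin in Schwann cells, 0.05) had adjusted p-values of 0.607, 0.461 and 0.805. The undetected genes had −0.04 for Sgcz, −0.155 for Sntg1 and −0.04 for Sntg2.

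The genes whose pattern over the 6 arrays was most like that of the members with the largest changes were found by the root mean square difference of log2 values, each centred on its control mean. Nearest to Sntb1 were Sorl1 (0.056), Egf (0.064) and Atxn1 (0.064), which encode a sorting receptor, a growth factor precursor and a nuclear repressor protein. All of them fell, by 0.74, 0.70 and 0.73 on the log2 scale, and in each the smallest fall was in C26 pool 1. Nearest to Sgcd were Rragd (0.034), Arhgap20 (0.037) and Tbc1d7 (0.038), which encode a Rag GTPase, a GTPase activating protein and a subunit of the TSC complex. They fell by 0.66, 0.63 and 0.60, and the C26 pools of each lay close together. For the genes nearest to Sntb1 and to Sgcd alike, the size of the fall and the pattern over pools follow from the selection. They are a description and not a separate result. Arhgap20 and Tbc1d7 came under 1.5-fold when each array was centred (−0.57 and −0.54) and without control pool 1 (both −0.55), and Tbc1d7 also did so without C26 pool 4 (−0.58). By the methods' t-test the adjusted p of Egf was 0.0864.

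Sequence upstream of the gene is shown for 3 members whose groups did not overlap, Dmd and Dag1 on the higher side and Sgcd on the lower side. RefSeq promoter windows (build GRCm38.p6) were found for 6 of the 8 members (not for Sntb1 and Dtna), with 8 windows in all, and the 250 bases before the annotated start were searched on both strands for the CArG box, which serum response factor binds, for the M-CAT motif CATTCC, for the GC box GGGCGG and for the E-box CANNTG, which myogenic factors bind. Capitals mark the CArG, M-CAT and GC box letters, on whichever strand they were found, and E-boxes are not marked. The windows are chrX:82948620-82948869 on the plus strand for Dmd, chr9:108263959-108264208 on the minus strand for Dag1 and chr11:47379326-47379575 on the minus strand for Sgcd, each written 5′ to 3′ along its gene.
Dmd: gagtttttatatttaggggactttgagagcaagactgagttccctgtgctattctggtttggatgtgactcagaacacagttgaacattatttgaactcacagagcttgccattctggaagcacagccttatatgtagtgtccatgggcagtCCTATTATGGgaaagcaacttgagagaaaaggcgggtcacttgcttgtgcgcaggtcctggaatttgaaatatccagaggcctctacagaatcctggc
Dag1: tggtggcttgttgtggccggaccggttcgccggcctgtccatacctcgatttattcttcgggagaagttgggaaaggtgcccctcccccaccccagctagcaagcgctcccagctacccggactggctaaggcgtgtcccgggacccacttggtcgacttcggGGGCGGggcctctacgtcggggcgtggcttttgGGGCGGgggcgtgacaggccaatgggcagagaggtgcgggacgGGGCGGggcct
Sgcd: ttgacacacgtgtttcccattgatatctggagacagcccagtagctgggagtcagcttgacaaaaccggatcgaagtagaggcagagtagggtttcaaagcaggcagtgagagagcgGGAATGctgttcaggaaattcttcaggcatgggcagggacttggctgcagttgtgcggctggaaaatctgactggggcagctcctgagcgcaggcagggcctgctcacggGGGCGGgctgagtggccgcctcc
This window of Dmd holds 1 CArG box, which begins 98 bases before the start, and 2 E-boxes. CArG letters occur in 1.47% of the 32851 windows of the table and in 1 of the 8 windows of members. The second Dmd window holds 3 GC boxes and no CArG box. The Dag1 window has a GC content of 67.6% against 45.2% in the Dmd window shown, with 3 GC boxes that begin 87, 54 and 11 bases before the start, and GC box letters occur in 32.7% of all windows. The Sgcd window holds 1 M-CAT motif 133 bases before the start, letters that 12.6% of all windows hold, together with 1 GC box and 2 E-boxes. The window of Utrn, which was lower in C26 muscle as well and is not printed, holds 7 E-boxes and none of the other motifs. E-box letters occur in 66.2% of all windows. These matches are descriptions of letters, and the arrays did not measure binding or promoter use. The probe set of a gene does not separate its transcripts either, which matters for Dmd, a gene known to use several promoters.

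Partners on the inner side of the membrane changed in both directions. Of 29 cytoskeletal and signaling partners 27 were measured, and 3 rose, 6 fell and 18 did neither, beside 5.94% rises and 4.95% falls over all probe sets. Their median log2 change was −0.15 and their range was −2.66 to 0.97. The 4 largest changes were in Aqp4, Ank1, Synm and Flnc, and the other 5 called partners, Camk2a, Nos1, Cav3, Dtnbp1 and Ank2, are named here because few genes were called and after their values were seen. Aqp4, the water channel of fast fibers that syntrophin holds at the sarcolemma, measured 7.61, 7.38 and 7.31 in control pools 1, 2 and 3 and 5.31, 4.48 and 4.52 in C26 pools 1, 3 and 4. The distance between the groups was more than their spread, with C26 pool 1 the least changed. Aqp4 fell by 2.66 (log2, SE 0.21, adjusted p = 4.13e-05), so that the control level was 6.34-fold the C26 level.

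Nos1, the neuronal nitric oxide synthase gene whose enzyme is anchored by dystrophin and syntrophin, measured 6.77, 6.93 and 6.80 in control pools 1, 2 and 3 and 7.45, 8.03 and 7.80 in C26 pools 1, 3 and 4. Each C26 pool was above each control pool. Nos1 rose by 0.93 (SE 0.14, adjusted p = 0.00126), or 1.90-fold, and its adjusted p was 0.104 by a test with unequal variances. Cav3, the caveolin gene of muscle, whose protein binds dystroglycan, measured 6.70, 6.87 and 6.60 in control pools 1, 2 and 3 and 6.00, 5.91 and 5.88 in C26 pools 1, 3 and 4. It fell by 0.79 (log2, SE 0.09, adjusted p = 0.000312), and no C26 pool reached a control pool.

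**Figure D3:**
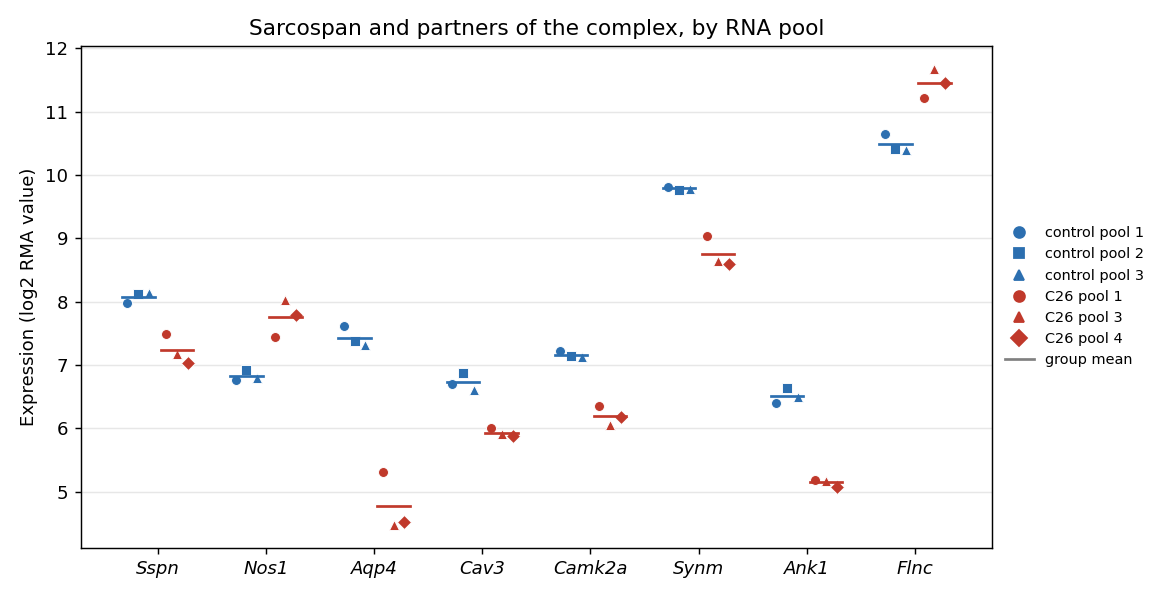
The vertical axis gives the log2 RMA value of sarcospan and of 7 partners of the complex, where blue markers are the 3 control pools, red markers are the 3 C26 pools, lines are group means and shapes stand for pool numbers. Aqp4 shows the widest gap, from 7.31 in the lowest control pool to 5.31 in the highest C26 pool, and Nos1 and Flnc are the genes shown in which the C26 pools lie above the control pools.

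Among proteins that link the complex to filaments, Synm, the synemin gene of the intermediate filament network, fell by 1.03 (SE 0.12, adjusted p = 0.000305), and Flnc, the filamin C gene whose protein binds sarcoglycans, rose by 0.97 (SE 0.13, adjusted p = 0.000587). Of the ankyrin genes, Ank1 fell by 1.36 (SE 0.09, adjusted p = 1.63e-05) and Ank2, whose protein helps to hold dystrophin at the membrane, fell by 0.62 (SE 0.08, adjusted p = 0.000709). Ank3 went the other way, with a log2 change of 0.42 (SE 0.09, adjusted p = 0.00771), under 1.5-fold. Every C26 pool of Ank3 lay above every control pool. Camk2a, a calmodulin-dependent kinase gene, fell by 0.97 (SE 0.09) and Dtnbp1, the gene of the dystrobrevin binding protein dysbindin, rose by 0.64 (SE 0.13, adjusted p = 0.00688). Dtnbp1 did not pass by the methods' t-test (adjusted p = 0.0712). Without control pool 3 its change was 0.55 and without C26 pool 4 it was 0.54, both under 1.5-fold. Ank2 came under 1.5-fold without control pool 1 (−0.57), without C26 pool 4 (−0.58) and with median centring (−0.55). Desmin (Des) and plectin (Plec), which join the filaments to the membrane, had log2 changes of 0.29 and −0.47, with adjusted p-values of 0.0219 and 0.00764 and under 1.5-fold. The p of Des was over 0.05 without control pool 3 (0.0726), C26 pool 1 (0.0566) or C26 pool 3 (0.0619), and that of Plec was 0.0530 by the methods' t-test.

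On the outer side, 3 of 18 measured matrix ligands and anchors fell, 0 rose and 15 did neither (19 genes were listed). Falls and rises over all probe sets were 4.95% and 5.94%. Without the fold minimum 8 of the 18 passed the test on the lower side and 1 on the higher side, beside 15.8% and 14.3% of all probe sets. The groups did not overlap for 12 lower genes and 1 higher gene, beside 24.6% and 19.3%. The median log2 change was −0.21. The genes that fell were Col6a1 (−1.43, SE 0.11, adjusted p = 3.75e-05) and Col6a2 (−1.33, SE 0.10, adjusted p = 3.25e-05), chains of the collagen VI network around the fiber, and Hspg2 (−0.83, SE 0.09, adjusted p = 0.000228), the gene of perlecan, a ligand of dystroglycan. The laminin genes of the fiber changed less. Lama2, the laminin chain of the muscle basement membrane, had a log2 change of −0.05 (interval −0.22 to 0.11, adjusted p = 0.639), while Lamb2 and Lamc1 had −0.31 (adjusted p = 0.0332) and −0.195 (adjusted p = 0.0802). The p of Lamb2 was over 0.05 without any one pool other than C26 pool 1 (0.0728 to 0.112) and with median centring (0.0756). Bgn, the gene of biglycan, a proteoglycan that binds sarcoglycans, had a log2 change of 0.48 (adjusted p = 0.00266), under 1.5-fold. The laminin receptor of the integrin type, which works beside dystroglycan, had −0.21 for Itga7 and −0.07 for Itgb1, with adjusted p-values of 0.152 and 0.521.

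Markers of fibroblasts, cells that make collagen VI, gave 4 falls (Col1a1, Col3a1, Dpt and Col15a1) and 0 rises among 9 genes. They did not move together, since Pdgfra (0.50, adjusted p = 0.00135) and Pi16 (0.41, adjusted p = 0.00481) were higher in every C26 pool than in every control pool, under 1.5-fold, and Dcn had a log2 change of 0.03 (adjusted p = 0.835). The summed level of the 9 genes, of which 3 that fell are collagen genes, was 12.92 to 13.04 in control and 12.32 to 12.49 in C26 pools (log2 of the sum of linear values). Markers of smooth muscle and pericytes, in which sarcoglycans are expressed too, gave 1 fall of 9 and summed levels of 10.92 to 10.97 and 10.76 to 10.89. Markers of endothelium gave 1 rise and 1 fall of 10, with summed levels of 10.76 to 10.81 in control and 10.72 to 10.87 in C26 pools. For Schwann cells 0 of 5 rose or fell (9.23 to 9.62 and 8.87 to 8.94), for satellite cells 0 of 7 (8.39 to 8.49 and 8.51 to 8.62), and for adipocytes 3 of 6 fell (9.59 to 9.74 and 9.41 to 9.61). Macrophage markers rose in 4 of 7 cases (9.43 to 9.54 and 10.10 to 10.14) and neutrophil markers in 6 of 7 (6.44 to 6.64 and 7.86 to 8.11), while the summed level of the muscle fiber markers was 15.80 to 15.85 in control and 15.62 to 15.69 in C26 pools. Among all probe sets 5.94% rose and 4.95% fell. The part of these cell types in the results above was not tested.

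Enzymes that build the laminin-binding sugar of dystroglycan also changed unequally. Of 19 genes 15 were measured, and 1 rose, 2 fell and 12 did neither, beside 5.94% rises and 4.95% falls over all probe sets. The median log2 change was −0.09. B3galnt2, which adds N-acetylgalactosamine to the core of the chain, fell by 1.11 (log2, SE 0.11, adjusted p = 0.000144), from 8.84, 8.82 and 8.72 in control pools 1, 2 and 3 to 7.91, 7.65 and 7.49 in C26 pools 1, 3 and 4. Pomk, the kinase that phosphorylates the core mannose, fell by 0.62 (SE 0.12, adjusted p = 0.00439), and Pomgnt2, which acts just before B3galnt2 in the pathway, had −0.54 (adjusted p = 0.00844, and 0.0695 by the methods' t-test), under 1.5-fold, and reached it without C26 pool 1 (−0.68). Pomk came under 1.5-fold with median centring (−0.55), quantile normalization (−0.56) or cyclic loess (−0.56), and without control pool 1 (−0.55) or C26 pool 3 (−0.53). The adjusted p of Pomk was 0.0519 by the methods' t-test and 0.0723 by a test with unequal variances. Dpm1, the catalytic subunit of the synthase that supplies mannose on dolichol, rose by 0.78 (SE 0.08, adjusted p = 0.00013).

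**Figure D4:**
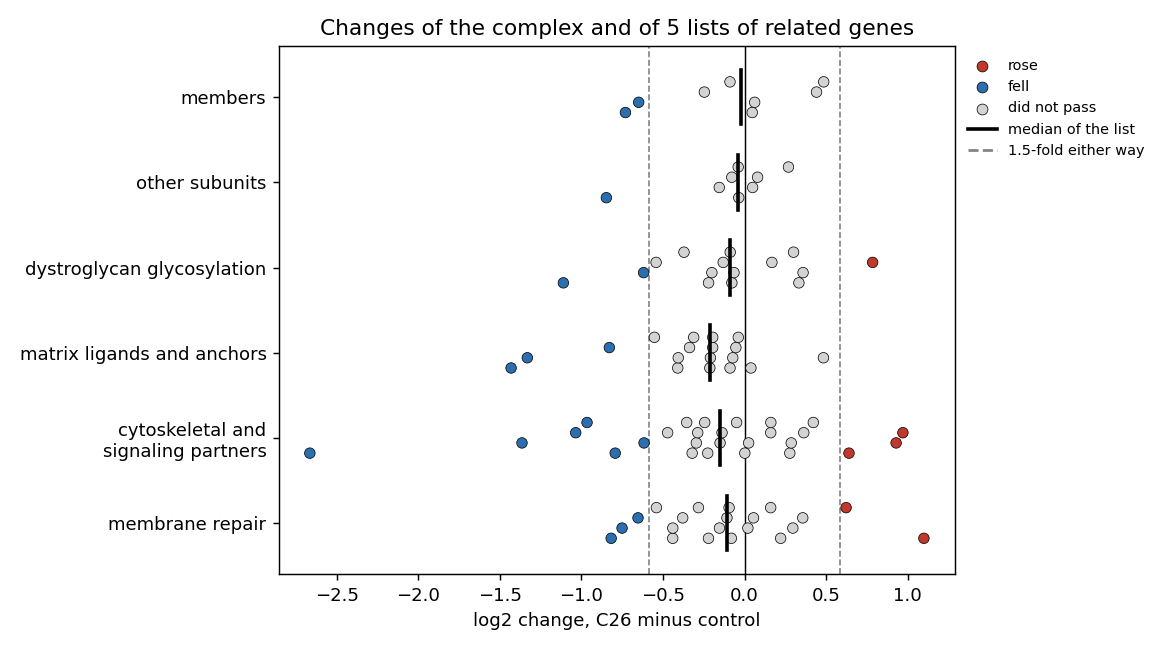
The log2 change, C26 minus control (horizontal axis), of each measured gene of the complex and of 5 lists of related genes, with genes that rose in red, genes that fell in blue, the list median as a vertical bar and the 1.5-fold limits as dashed lines. The medians of the lists lie between −0.21 and −0.02, and called genes lie on both sides in the lists of glycosylation, cytoskeletal and repair genes.

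Membrane repair genes, whose products reseal a torn sarcolemma, were measured for 21 of 21 listed, and 2 rose, 3 fell and 16 did neither. The shares over all probe sets were 5.94% for rises and 4.95% for falls. The median log2 change was −0.11. Anxa4, an annexin gene, rose by 1.10 (SE 0.08, adjusted p = 3.57e-05), from 6.23, 6.42 and 6.26 in control pools 1, 2 and 3 to 7.35, 7.47 and 7.40 in C26 pools 1, 3 and 4. Trim72, the gene of the repair protein MG53, rose by 0.62 (SE 0.09, adjusted p = 0.000954) and was named after its value was seen. It came under 1.5-fold with quantile normalization (0.54), without control pool 3 (0.57) and without C26 pool 3 (0.57). The genes that fell were Ehd2, a membrane-shaping ATPase (−0.82, SE 0.09), Smpd1, acid sphingomyelinase (−0.75, SE 0.08), and Anxa5, another annexin (−0.65, SE 0.11), with adjusted p-values of 0.000205, 0.00015 and 0.00269. Anxa5 came under 1.5-fold without control pool 1 (−0.57). Dysf, the dysferlin gene, whose loss causes a muscular dystrophy of its own, had a log2 change of −0.09 (interval −0.26 to 0.07, adjusted p = 0.380). Cavin1 and Anxa6 had log2 changes of −0.54 (adjusted p = 0.00112) and 0.36 (adjusted p = 0.0074), both under 1.5-fold and without overlap of the groups.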

How the data were processed

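Gastrocnemius and plantaris RNA (integrity number at least 8.0) was measured on Affymetrix Mouse Gene 1.0 ST arrays. The authors deposited log2 values made by RMA in GenePattern with a Brainarray custom CDF, which joins the probes of a gene into 1 probe set. The values were used without further normalization, and a genome build for the probes was not given in the sources used here. RMA equalizes the arrays, so a shift of total mRNA would not be seen. Of 21212 probe sets 18782 carried 1 unshared symbol from the platform annotation, updated through a RefSeq table (GRCm38.p6). Genes without such a probe set are not analysed here, which left 2 of 5 planned paralog pairs uncompared. The background was 3.82, the 95th percentile of the mean level of 1255 olfactory and vomeronasal receptor probe sets.

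Control and C26 pools were set against each other in limma (version 3.58.1, R 4.3.3). Tests were two-sided, the prior had 4.52 degrees of freedom, and p-values were adjusted by Benjamini-Hochberg across the 21212 probe sets. SE and intervals come from this fit, and the intervals are not adjusted. The paralog pairs were compared by an exact permutation test. The methods name a parametric test with q-values, and "the methods' t-test" denotes an equal-variance form of it run on these values. The scripts were tested on simulated data. The complex genes and gene lists were chosen with earlier results of these data known. Named are the 8 members, the measured further subunits, up to 4 called genes with the largest change of each other list and the 3 nearest genes of each of the 2 members with the largest change. Other genes named (Nos1, Cav3, Camk2a, Ank2, Ank3, Dtnbp1, Trim72, Dysf, Lama2, Lamb2, Lamc1, Itga7, Itgb1, Bgn, Des, Plec, Pomgnt2, Cavin1, Anxa6 and 7 fibroblast markers) were added after their values were seen. The alternatives were other tests, variance settings, fold minimums, scalings, a filter on dim probe sets, a replicate block and leaving out each pool. Precision is limited by the 3 arrays per group.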

Additional observations from a re-analysis of the deposited data

How the results depend on the processing

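Over 18 alternative settings, 869 of 969 combinations of a gene with a setting kept the direction and the side of the thresholds, counted over the genes of the naming rule and those added to it (Cavin1 and Anxa6 included, Ank3, paralog pairs and cell type markers not). Part of this count was fixed in advance. Called genes keep their call with no fold minimum, and genes not called gain none with a 2-fold minimum. The 2 complex genes that fell became 1 by the methods' t-test and 1 with median centring, 0 with unequal variances and 0 with a 2-fold minimum, and they were 1 to 2 without one pool (1 without control pool 1). With no fold minimum 2 members were higher. Sspn, the further subunit that fell, gave a count of 0 with unequal variances or a 2-fold minimum, and with no fold minimum 1 further subunit was higher. Over all probe sets, rises and falls were 760 and 621 with unequal variances, 3041 and 3344 with no fold minimum, 432 and 307 with a 2-fold minimum, and 1196 to 1391 and 992 to 1155 without one pool. With unequal variances, falls were 0 for glycosylation, 1 for matrix and 1 for repair genes, and rises were 0 for cytoskeletal partners. The adjusted p by that test was 0.0865 for Synm, 0.0508 for Flnc, 0.0545 for B3galnt2 and 0.054 for Col6a1. It was 0.0657 for Hspg2, 0.0563 for Ehd2 and 0.0872 for Anxa5. It stayed under 0.05 for Aqp4 (0.0490), Ank1 (0.0189), Col6a2 (0.016), Smpd1 (0.0232), Anxa4 (0.0190) and Dpm1 (0.0256). With no fold minimum, higher and lower genes were 3 and 4 for glycosylation, 1 and 8 for matrix, 7 and 11 for cytoskeletal and 4 and 8 for repair genes. With a 2-fold minimum they were 0 and 1 for glycosylation, 1 and 0 for repair genes, and 0 and 3 for cytoskeletal partners. Falls of glycosylation genes were 1 by the methods' t-test, with median centring, with quantile normalization and with cyclic loess, and 1 to 3 without one pool. Rises of repair genes were 1 with quantile normalization and 1 to 2 without one pool. Apart from the fold minimums, whose effect follows from their construction, the cause of these shifts was not tested.

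Reversals of sign were seen in values close to 0, none of which passed in either direction. They were Sgcb (−0.0612) and Dtna (−0.0279) with quantile normalization, Lama2 (0.0114) with median centring, Sgcz with median centring (0.0257), quantile normalization (0.0156) and cyclic loess (0.0328), and Sntg2 with those settings (0.029, 0.0296 and 0.0418) and with array weights (4e-04). Without one pool the change ran from −0.0586 to 0.213 for Dtna, −0.1338 to 0.001 for Sgce, −0.0896 to 0.0111 for Sgcz, −0.1044 to 0.0124 for Sntg2, −0.0203 to 0.1884 for Drp2, −0.145 to 0.1209 for Dtna minus Dtnb and −0.0835 to 0.056 for Sgca minus Sgce.

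Pool numbers 1 and 3 occur in both groups, and same-numbered pools did not deviate together (correlations of −0.0608 and −0.0572), so the numbers were not taken as a pairing. With the replicate block, whose estimates rest on those pools, Dtna was −0.0377 and Sntg2 0.0184, the adjusted p rose over 0.05 for Utrn (0.340), Dag1 (0.0526), Sntb2 (0.136), Lamb2 (0.238), Des (0.107), Plec (0.0721), Pomgnt2 (0.0726) and Anxa6 (0.0896), and the calls of Dtnbp1 and Tbc1d7 were lost. All probe sets then gave 1235 rises and 1069 falls. The 3 arrays per group limit what can be seen, and genes under the background could hardly show a change.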
